A study of Homo sapiens with 6 samples.

Results

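ETV6, RUNX1, RUNX2, RUNX3, CBFB and EPOR are the fusion partners of REH leukemia cells, the relatives and the binding partner of RUNX1, and the erythropoietin receptor. They were taken by symbol from the deposited table of counts, where all 6 were found among 26485 entries. Counts are per gene, so a read from an ETV6-RUNX1 fusion transcript is counted under the gene whose exon it falls in, and fusion and native transcripts of a gene were not told apart. With ML141, ETV6 rose 3.26-fold and RUNX1 rose 1.64-fold, while CBFB fell 1.68-fold. EPOR did not pass the test in the main fit, though it passed in 4 of 19 alternative ways of processing. RUNX2 and RUNX3 had at most 13 and 1 counts in any library.

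RUNX proteins bind DNA through their Runt domain, and CBFB, which does not bind DNA itself, makes that binding stronger and protects the RUNX protein from degradation. ETV6 is a repressor of the ETS family that blood stem cells need. In ETV6-RUNX1 leukemia of childhood the 5' part of ETV6, with its promoter, is joined to nearly all of RUNX1, and the unrearranged ETV6 allele is often lost, as it is known to be in REH. EPOR is the receptor of erythropoietin, signals through JAK2 and STAT5 in red cell precursors, and is known for high expression in ETV6-RUNX1 leukemia.

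REH is an established line of B-precursor acute lymphoblastic leukemia. The groups were REH cells given 25 µM ML141, an inhibitor of the GTPase CDC42, for 24 h (n = 3 libraries), and REH cells given the solvent DMSO for 24 h (n = 3). The series describes 3 independent experiments on this single line, so p-values measure the spread between cultures of REH and not between patients. Total counts were 10436147 to 12308039 in ML141 libraries and 8284299 to 10837224 in DMSO libraries. Levels below are CPM, the count of a gene scaled to the size of its library, on library sizes scaled by TMM, and a library with no count of a gene allows a level of up to 0.226 to 0.278 CPM with ML141 and 0.289 to 0.389 CPM with DMSO, the level of 3 counts, which takes in counting error alone.

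The label of the line was compared with marker genes. Of 13 precursor B cell genes 12 had enough counts to be tested, and the summed level of the 13 was 9530 to 9880 CPM with ML141 and 7630 to 8350 CPM with DMSO, with 8 of the 12 higher and 1 lower. By the same test, described below, 26.7% of all genes tested were higher and 27.7% lower. VPREB1, the surrogate light chain, had 1 count with ML141 and 0 with DMSO. Of 11 erythroid genes, the cells in which EPOR normally acts, 7 were at 0 in all libraries, including HBB and GATA1, and the summed level was at most 0.086 CPM with ML141 and 0.415 CPM with DMSO. T cell genes summed to at most 1.55 CPM with ML141 and 0.771 CPM with DMSO, and platelet genes to at most 0.556 CPM with ML141 and 0.389 CPM with DMSO. Myeloid genes summed to 32.7 to 36.3 CPM with ML141 and 49.1 to 50.3 CPM with DMSO, and 6 stromal genes to 34.4 to 41.6 CPM with ML141 and 41.1 to 46.5 CPM with DMSO. In such bulk RNA, fewer cells of a kind and less RNA per cell cannot be told apart.

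The promoter windows of ETV6, RUNX1 and EPOR are shown because these 3 genes carry the fusion or are linked to it. They are RefSeq sequence on GRCh38.p14, the 250 bases before the annotated start, with matches in capitals to the RUNX motifs TGTGGT or TGCGGT, the ETS motif CCGGAA, the motif AGATAA of red cell GATA factors, and the motif GGGCGG of SP and KLF factors, searched on both strands. The RUNX1 window belongs to the proximal of its promoters.
ETV6, chr12:11649424-11649673, plus strand: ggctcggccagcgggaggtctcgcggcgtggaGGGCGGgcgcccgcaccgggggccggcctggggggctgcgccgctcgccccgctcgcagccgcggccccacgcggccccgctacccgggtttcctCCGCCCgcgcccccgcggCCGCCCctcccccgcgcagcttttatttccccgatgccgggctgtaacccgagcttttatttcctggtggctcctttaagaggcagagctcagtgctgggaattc
RUNX1, chr21:34888700-34888949, minus strand: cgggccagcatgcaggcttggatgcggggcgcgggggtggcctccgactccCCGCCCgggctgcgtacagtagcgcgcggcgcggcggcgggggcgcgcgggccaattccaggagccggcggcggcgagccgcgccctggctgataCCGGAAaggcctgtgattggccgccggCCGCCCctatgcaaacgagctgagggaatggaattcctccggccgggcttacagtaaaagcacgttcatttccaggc
EPOR, chr19:11384315-11384564, minus strand: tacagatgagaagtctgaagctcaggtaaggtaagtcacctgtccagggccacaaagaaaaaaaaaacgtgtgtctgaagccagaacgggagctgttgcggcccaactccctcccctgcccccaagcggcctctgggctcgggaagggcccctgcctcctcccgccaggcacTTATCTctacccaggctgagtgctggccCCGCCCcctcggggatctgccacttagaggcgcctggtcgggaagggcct
The ETV6 window is 74.4% GC and holds 3 matches to GGGCGG and none to the other letters. The RUNX1 window is 71.2% GC and holds 2 matches to GGGCGG and 1 to CCGGAA, 104 bases before the start. The EPOR window is 62% GC and holds 1 match to GGGCGG and 1 to AGATAA, 78 bases before the start. Of 35114 windows of this length, 42.6% held GGGCGG, 14.5% CCGGAA, 9.17% AGATAA, 11% TGTGGT and 5.84% TGCGGT. The matches describe letters, not bound sites.

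RUNX2 and RUNX3 are shown for the letters they share, a pair of RUNX motifs (ACCACA, the other strand of TGTGGT, in capitals) at their distal starts.
RUNX2, chr6:45328344-45328361, plus strand: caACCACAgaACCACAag
RUNX3, chr1:24965126-24965143, minus strand: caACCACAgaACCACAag
This run of 18 bases lies after the RefSeq start of RUNX2 and before that of RUNX3, so for this search the windows were taken on past the start, to their full length in the RefSeq table. Among genes with such a window only these 2 held the run. It was picked as the longest run that a RUNX2 and a RUNX3 window share. RUNX1 entered this search with the window of its proximal start alone, so its distal start was not searched.

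Whether these genes differ between cells given ML141 and cells given DMSO was read from the fit over all genes, edgeR's quasi-likelihood test with Benjamini-Hochberg adjustment over 11454 genes tested and a threshold of 0.05. Of the 6 genes, ETV6, RUNX1, CBFB and EPOR had enough counts to be tested, and 3 of these 4 changed, beside 54.4% of all genes tested. Among all genes 26.7% were higher and 27.7% lower with ML141, so a call by itself is common in this comparison. For the same 3 genes every library of a group lay on one side of the other group, as was the case for 61.2% of all genes tested.

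ETV6 (chromosome 12, 11649854 to 11895402, plus strand, hg38) had 14.4, 13.8 and 14.4 CPM in ML141 replicates 1 to 3, against 3.63, 4.56 and 4.72 CPM in the DMSO replicates. Each ML141 library was above every DMSO library, and the ML141 libraries lay closer together than the DMSO libraries. The values rest on 155, 183 and 167 counts with ML141 and 28, 44 and 49 with DMSO. The log2 fold change was 1.70 (SE 0.165, edgeR adjusted p = 5.56e-06, higher in 3 of 3 libraries), larger in size than in 96.9% of genes tested. The ratio of summed counts over scaled library sizes was 3.24, with an exact 95% Clopper-Pearson interval of 2.65 to 3.99 for counting error alone.

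RUNX1 (chromosome 21, 34787801 to 36004667, minus strand), the DNA-binding subunit and the 3' partner of the fusion, had 461.2, 446.1 and 410.2 CPM with ML141, against 284.1, 262.8 and 258.1 CPM with DMSO. The lowest ML141 library was well above the highest DMSO library. The log2 fold change was 0.71 (SE 0.0799, edgeR adjusted p = 1.71e-05), larger in size than in 74.8% of genes tested. The 2 fusion partners thus both had higher counts with ML141, and in counts ETV6 remained far below RUNX1. For every 100 counts of RUNX1 there were 3.11, 3.09 and 3.50 counts of ETV6 in ML141 replicates 1 to 3, against 1.28, 1.74 and 1.83 in the DMSO replicates.

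CBFB (chromosome 16, 67029116 to 67101058, plus strand), the shared partner of the RUNX proteins, moved the other way. It had 172.6, 168.5 and 163.9 CPM with ML141, against 294.7, 282.9 and 272.8 CPM with DMSO. The highest ML141 library lay below the lowest DMSO library. CBFB fell by 0.75 on the log2 scale (SE 0.0741, edgeR adjusted p = 6.51e-06), a change larger in size than in 77% of genes tested.

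EPOR (chromosome 19, 11377205 to 11384342, minus strand) had 3.71, 6.41 and 5.76 CPM with ML141, against 2.98, 4.25 and 3.95 CPM with DMSO. ML141 replicate 1 lay within the DMSO range and the other ML141 libraries above it, so the groups overlapped. The log2 fold change was 0.50 (SE 0.248, edgeR adjusted p = 0.107), which did not pass the test. The call depended on ML141 replicate 1, on scaling and on pairing: without that library the change was 0.69 (edgeR adjusted p = 0.0145), and with library totals in place of TMM it was 0.68 (edgeR adjusted p = 0.0429). With the replicate number as a block it was 0.50 (edgeR adjusted p = 0.0452), and the ML141 library was higher than the DMSO library of its number in 3 of 3 pairs. The summed counts, 192 with ML141 and 105 with DMSO, stood in a ratio of 1.42 (counting interval 1.11 to 1.82), which leaves out the spread between cultures. The ligand gene EPO had 0 counts with ML141 and 1 with DMSO.

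RUNX2 (chromosome 6, 45328157 to 45664349, plus strand), the RUNX factor of bone, had 8, 13 and 4 counts with ML141, or 0.741, 0.980 and 0.344 CPM, against 3, 4 and 2 counts with DMSO, or 0.389, 0.415 and 0.193 CPM. The groups overlapped, and the gene was below the count filter. The summed counts of 25 with ML141 and 9 with DMSO stood in a ratio of 2.16 (counting interval 0.975 to 5.26). RUNX3 (chromosome 1, 24899511 to 24965121, minus strand), which acts in T cells and mature B cells, had 0, 1 and 0 counts with ML141 and 1, 0 and 1 with DMSO, a ratio of 0.389 with an interval of 0.00659 to 7.46. The single ML141 count was in replicate 2, and the counts do not show a direction. Tested without a count filter, neither passed (edgeR adjusted p = 0.164 for RUNX2 and 0.639 for RUNX3). None of the 6 genes shares exon bases with another gene in the GENCODE basic annotation. The annotation behind the deposited counts is unknown, and unstranded libraries cannot resolve genes that overlap on opposite strands.

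**Figure D1:**
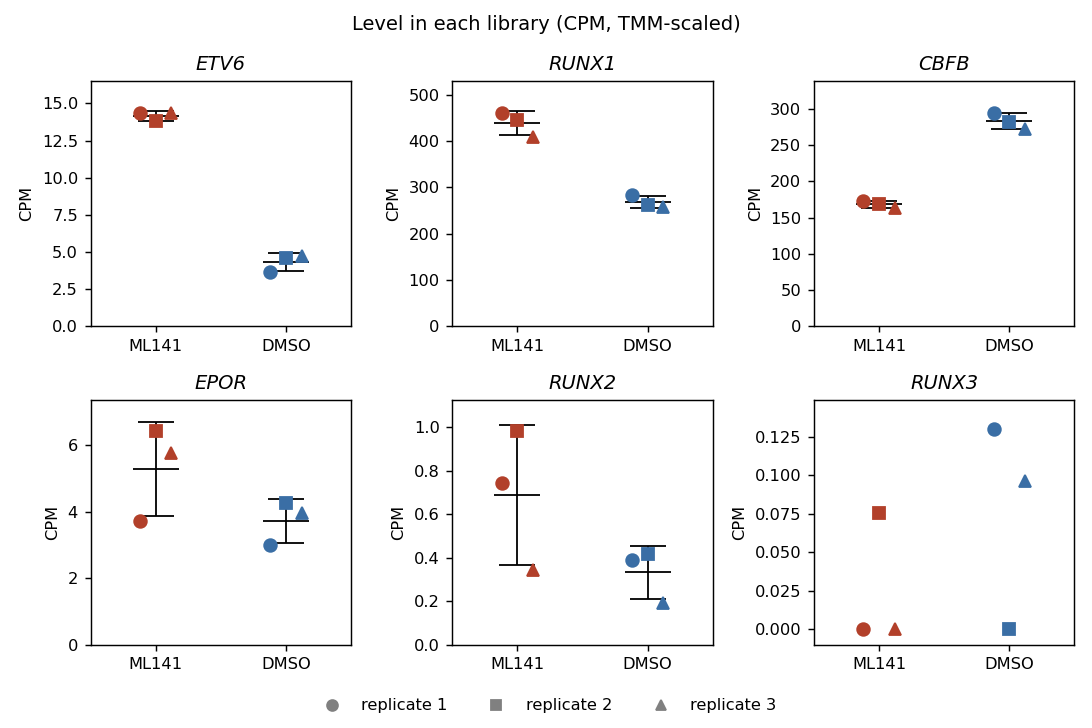
CPM of the 6 genes in each library, ML141 left of DMSO, with 1 panel and its own linear axis per gene; symbols give the replicate number, and the horizontal line and bars give the mean and SD of 3 libraries (not drawn for RUNX3, which has 0 counts in 3 of 6 libraries). ETV6 averaged 14.2 ± 0.321 CPM with ML141 and 4.30 ± 0.590 CPM with DMSO, and CBFB 168.3 ± 4.36 CPM with ML141 and 283.5 ± 10.9 CPM with DMSO.

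Levels were compared between the genes per kb of exon, using the union of the exons of each gene in GENCODE release 29. That union is 8234 bases for RUNX1 and 3167 for CBFB, while the longest transcripts are 7274 and 3136 bases. The order of RUNX1 and CBFB with ML141 therefore depends on the length taken. With ML141 and by the exon union, RUNX1 at 53.3 ± 3.19 and CBFB at 53.2 ± 1.38 CPM per kb (SD, n = 3) did not differ beyond their spread. ETV6 at 2.37 ± 0.0537 and EPOR at 2.11 ± 0.563 CPM per kb followed, and these too overlapped between libraries. RUNX2 at 0.0970 ± 0.0453 CPM per kb came next, above RUNX3, whose highest library was at 0.0173 CPM per kb. With DMSO the order was CBFB at 89.5 ± 3.45, RUNX1 at 32.6 ± 1.68, EPOR at 1.49 ± 0.264 and ETV6 at 0.719 ± 0.0985 CPM per kb, with no overlap between neighbours. RUNX2 at 0.0468 ± 0.0171 CPM per kb overlapped RUNX3, which reached 0.0297 CPM per kb. Among genes tested, RUNX1 stood above 91.1% with ML141 and 80.4% with DMSO, whereas ETV6 stood above 18.6% with ML141 and 8.29% with DMSO. For CBFB these shares were 91.1% with ML141 and 94.1% with DMSO, and for EPOR 17.1% with ML141 and 15% with DMSO. Of the summed level of the RUNX genes per exon length, RUNX1 made up 99.7% to 99.9% with ML141 and 99.8% in each DMSO library. The ETV6 exon union holds the 3' exons that the fusion lacks, so its level per kb is not the level of the fusion transcript.

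A ratio of 2 genes within a library does not depend on how libraries are scaled. Counts of RUNX1 per 100 counts of CBFB were 267, 265 and 250 in ML141 replicates 1 to 3, against 96.4, 92.9 and 94.6 in the DMSO replicates. On the log2 scale of counts plus 0.5 the ratio of RUNX1 to CBFB averaged 1.38 ± 0.0510 with ML141 and -0.08 ± 0.0267 with DMSO, a difference of 1.46. The ratio of ETV6 to RUNX1 averaged -4.95 ± 0.1 with ML141 and -5.95 ± 0.274 with DMSO, a difference of 1.00. Both had a 2-sided exact permutation p of 0.1 (adjusted p = 0.2 over the 4 ratios computed), the smallest that 3 against 3 libraries can give, so this test could not pass the threshold. The ratio of EPOR to RUNX1 averaged -6.40 ± 0.470 with ML141 and -6.16 ± 0.332 with DMSO (exact permutation p = 0.5, adjusted p = 0.667), and that of RUNX2 to RUNX1 averaged -9.34 ± 0.650 with ML141 and -9.50 ± 0.497 with DMSO (exact permutation p = 0.7, adjusted p = 0.7). The groups overlapped in both.

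**Figure D2:**
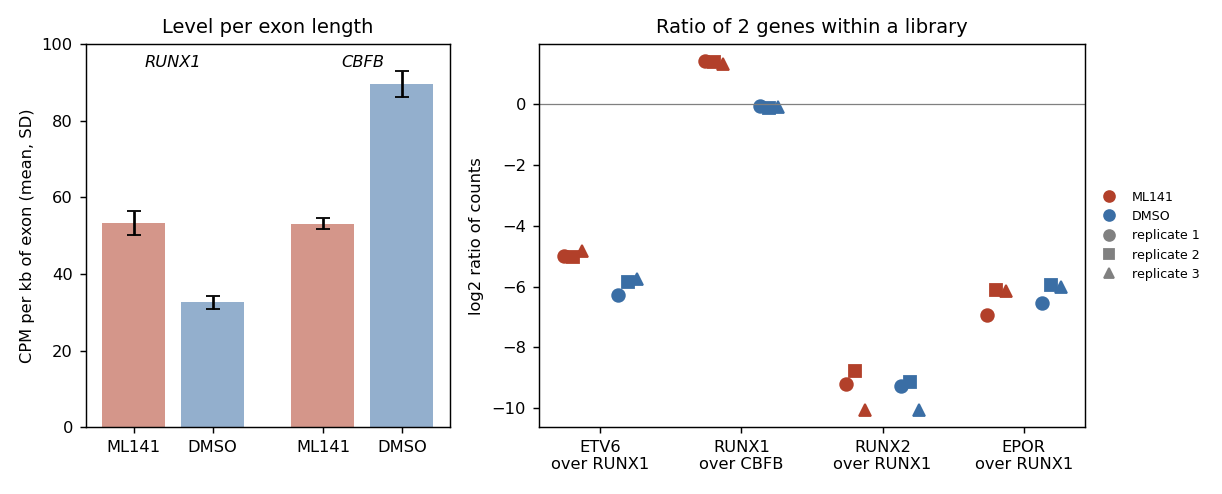
Left, level of RUNX1 and CBFB per kb of exon (linear axis from 0; bars are means and error bars SD of 3 libraries), with ML141 left of DMSO for each gene. Right, log2 ratio of the counts of 2 genes within each library (counts plus 0.5), coloured by group with 1 symbol per replicate number; the ratio of RUNX1 to CBFB averaged 1.38 with ML141 and -0.08 with DMSO, while the ratio of RUNX2 to RUNX1 overlapped between groups.

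Proteins that bind RUNX1 or ETV6 moved in both directions. Of 29 tested genes of such cofactors 11 were higher and 9 lower with ML141, or 69% changed beside 54.4% of all genes. Their median log2 fold change was 0.13 (0.017 over all genes). With library totals 13 were higher and 5 lower. With that scaling 59.3% of all genes changed, and 66.1% of these were higher, which also stands beside the library-total counts of the lists below. The acetyltransferase gene CREBBP, a coactivator of RUNX1, rose to 443.3 ± 18.2 CPM with ML141, against 261.1 ± 12.1 CPM with DMSO, or 1.70-fold (edgeR adjusted p = 7.15e-06; log2 change 0.76, SE 0.0763). KAT6B, an acetyltransferase of the MOZ family, rose 1.72-fold and CBFA2T2, a corepressor of the ETO family, rose 1.64-fold. RUNX1T1, the ETO gene itself, had 0 counts in all libraries. Among the corepressors of the fusion protein, named here for that role after their values were seen, HDAC3 was at -0.19 (SE 0.0980) and did not pass the test, NCOR1 rose 1.18-fold and SIN3A fell 1.20-fold. SIN3A lost its call under 6 of 19 alternatives and NCOR1 under 5.

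Of the other ETS factors 5 of 18 tested were higher and 3 lower, or 44.4% beside 54.4% of all genes, with a median of -0.03, and 8 higher and 2 lower with a median of 0.14 with library totals. SPIB, an ETS factor of B cells, fell to 14.3 ± 3.99 CPM with ML141, against 28.5 ± 1.40 CPM with DMSO, and 22.1% of its exon bases are shared with AC020909.1 on its own strand. SPI1, which encodes PU.1, rose to 37.0 ± 3.54 CPM with ML141, against 22.9 ± 3.8 CPM with DMSO, or 0.69 on the log2 scale (SE 0.136, edgeR adjusted p = 0.00109). ETV4 fell 1.64-fold. ETV7, the closest relative of ETV6 and named for that, had 7.04 ± 0.894 CPM with ML141 and 6.96 ± 1.19 CPM with DMSO and did not pass the test (edgeR adjusted p = 0.931).

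Genes downstream of EPOR were also expressed. Of 25 tested genes of this pathway 11 were higher and 4 lower, or 60% beside 54.4% of all genes, with a median of 0.18, against 19 higher and 4 lower with library totals. GAB2, a docking protein, rose to 236.2 ± 12.1 CPM with ML141, against 93.1 ± 2.71 CPM with DMSO, or 1.34 on the log2 scale (SE 0.0793, edgeR adjusted p = 2.03e-07). BCL2L1, the survival gene of red cell precursors, rose 1.60-fold, with 42.8% of its exon bases shared with ABALON on the opposite strand, and the phosphatase gene PTPN11 fell 1.53-fold. The other lower genes of the pathway were the phosphatase gene PTPN6 at -0.90 (SE 0.146), the kinase gene LYN at -0.71 (SE 0.119) and MYC at -0.64 (SE 0.0951). The receptor's kinase and its STAT factors were looked at for their role after their values were seen. JAK2 rose to 66.6 ± 8.26 CPM with ML141, against 42.0 ± 3.53 CPM with DMSO, and STAT5A rose 1.69-fold, while STAT5B, at 0.09 (SE 0.0815), did not pass the test. Of the feedback inhibitors, SOCS2 rose 2.46-fold and SH2B3 rose 1.27-fold, and the call of SH2B3 was lost under 3 of 19 alternatives. Those below the filter were not tested, and their counts are raw sums, not scaled to library size. CISH had 20 counts with ML141 and 17 with DMSO, and SOCS1 had 42 with ML141 and 15 with DMSO. SOCS3 had 31 with ML141 and 7 with DMSO. The scaled size of every ML141 library was above that of every DMSO library, so the CISH counts give no direction.

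Of 7 tested receptors of the same class I cytokine family 4 were higher and 0 lower, or 57.1%, close to the 54.4% of all genes, with a median of 0.60. With a stricter filter, which tested fewer genes, 2 changed. Of the list, 12 of 19 were below the filter. CSF2RB, the shared beta chain of the IL-3 and GM-CSF receptors, rose to 13.5 ± 0.646 CPM with ML141, against 5.40 ± 1.14 CPM with DMSO. IL2RG, the common gamma chain, rose 1.52-fold, with 62.3% of its exon bases shared with AL590764.2 on its own strand, and LEPR, the leptin receptor gene, rose 3.10-fold from low levels (2.47 ± 0.377 CPM with ML141 and 0.790 ± 0.0719 CPM with DMSO). The remaining higher gene was IL21R. IL7R at -0.10 (SE 0.126), IL4R at -0.675 (SE 0.293) and IL6ST at 0.23 (SE 0.117) did not pass the test. IL7R had 1516 ± 228 CPM with ML141 and 1628 ± 249 CPM with DMSO. CSF2RA and IL3RA, of the same list, had 0 counts with ML141 and 0 with DMSO.

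Of 25 genes known as RUNX targets in blood cells 12 were tested, and 8 were higher and 2 lower, or 83.3% beside 54.4% of all genes, with a median of 0.62 (0.017 over all genes). The list does not separate targets that RUNX factors raise from those they lower, so its counts give no direction of RUNX activity. ZBTB7B, which encodes the T cell factor ThPOK, rose to 81.2 ± 4.09 CPM with ML141, against 15.8 ± 1.12 CPM with DMSO, or 2.36 on the log2 scale (SE 0.106, edgeR adjusted p = 3.82e-08). CD79A, which carries the signal of the B cell receptor into the cell, rose 2.18-fold. MPO, the myeloperoxidase gene and itself a marker of myeloid cells, fell to 26.2 ± 1.38 CPM with ML141, against 41.4 ± 0.364 CPM with DMSO. SPI1, given above, is also in this list. EBF1 lost its call without replicate 3 of both groups (edgeR adjusted p = 0.0553). CD79A, BLK and EBF1 are precursor B or B cell genes, and the summed level of B precursor markers given above was higher with ML141. CD79A and EBF1 are themselves among the markers summed, so that sum is not independent of them. The part of the B precursor level in these values was not tested.

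The genes known from expression signatures of ETV6-RUNX1 leukemia, EPOR left out, counted 3 higher and 2 lower of 14 tested, or 35.7% beside 54.4% of all genes, with a median of 0.09. With library totals 6 were higher and 2 lower. Without replicate 3 of both groups 3 changed in all, in a fit where 36.3% of all genes tested changed. CLIC5, of the chloride intracellular channel family, rose 1.51-fold, CBFA2T3, a corepressor also in the cofactor list, rose to 324.6 ± 50.7 CPM with ML141, against 207.8 ± 1.29 CPM with DMSO, and IGF2BP1, an mRNA-binding protein, fell to 343.2 ± 45.3 CPM with ML141, against 503.8 ± 23.1 CPM with DMSO. TCFL5, a basic helix-loop-helix factor and the other lower gene, fell 1.40-fold with a call lost without replicate 3 of both groups (edgeR adjusted p = 0.063), and KCNN1, the other higher gene, rose 1.29-fold with a call lost under 7 of 19 alternatives. PTPRK had 0 counts in all libraries. Of 8 tested factors that bind DNA together with RUNX1 in blood cells 4 were higher and 0 lower, or 50% beside 54.4% of all genes, with a median of 0.25: LYL1 rose 1.89-fold, TCF3 1.38-fold, LDB1 1.34-fold, and TCF12 was the fourth. ERG and FLI1, ETS factors that share RUNX1 sites, were at -0.18 (SE 0.0735, edgeR adjusted p = 0.0509) and 0.07 (SE 0.0989) and did not pass the test. TAL1 had 0 counts with ML141 and 1 with DMSO.

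**Figure D3:**
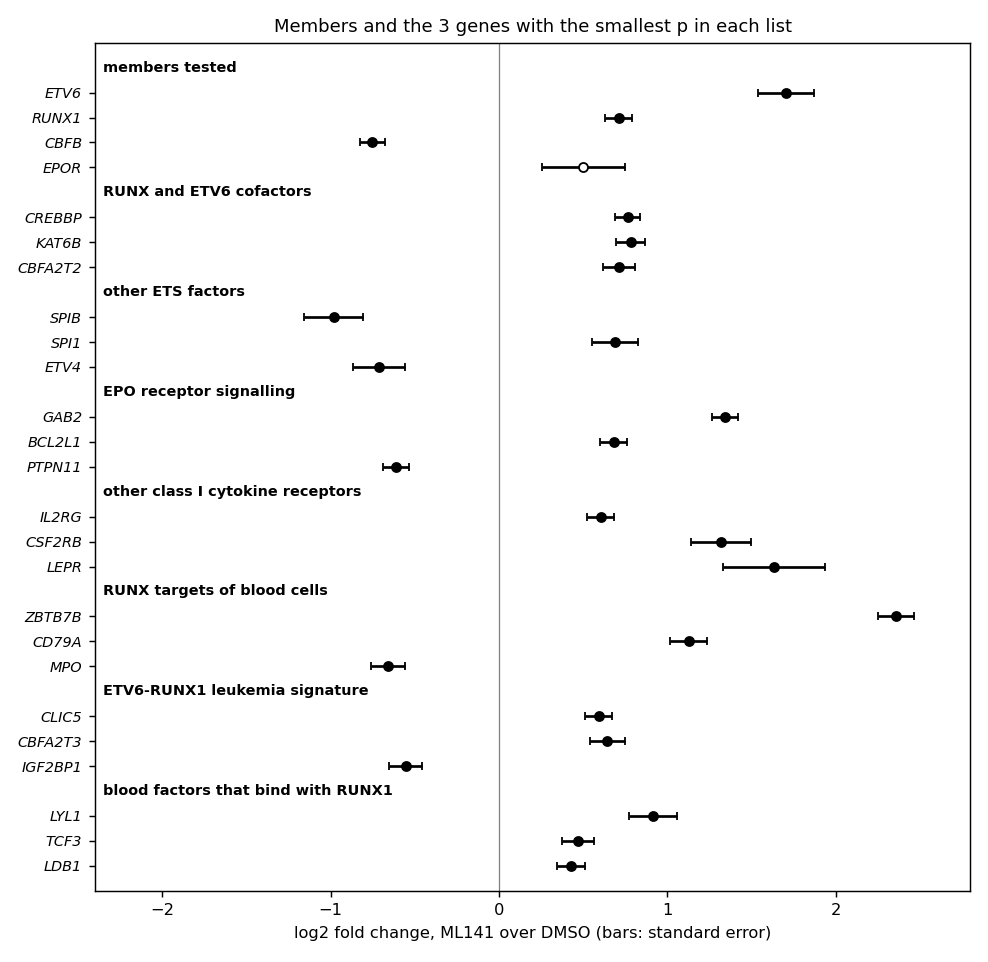
Log2 fold change of ML141 over DMSO for the 4 tested genes of the set and, in each list, the 3 tested genes with the smallest p (filled, edgeR adjusted p under 0.05; open, not past it; bars are standard errors). ETV6 at 1.70 lies to the right of all the others shown except ZBTB7B at 2.36, and CBFB at -0.75 is lower than all but SPIB at -0.98.

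For each tested gene the 2 genes with the most similar profile were looked up among 9092 genes averaging 5 CPM or more (9093 for EPOR), by the root mean square difference of log2 CPM relative to the DMSO mean over the 6 libraries. For ETV6 these were RBMS3, an RNA-binding protein gene, at a difference of 0.0783 and CSRNP1, a nuclear factor gene, at 0.1. RBMS3 had 15.5 ± 1.10 CPM with ML141 and 4.70 ± 0.703 CPM with DMSO. For RUNX1 they were BCAS4 at 0.0252 and ZHX2, a zinc finger and homeobox repressor, at 0.0264. ZHX2 had 355.1 ± 14.0 CPM with ML141 and 213.1 ± 10.7 CPM with DMSO. For CBFB they were G3BP1, a stress granule protein, at 0.0183 and RBBP4, a histone chaperone, at 0.0189, of whose exon bases 21.3% are shared with SYNC on the opposite strand. RBBP4 had 520.5 ± 7 CPM with ML141 and 874.2 ± 32.5 CPM with DMSO. For EPOR they were APBB3 at 0.0617 and NCF4 at 0.0819, and both had ML141 replicate 1 as the lowest ML141 library, as EPOR did. NCF4 lost its call in 7 of the fits with libraries left out. The measure of likeness is a description over 6 libraries in 2 groups.

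The authors' deposited table gives a log2 fold change of 1.70 for ETV6, 0.70 for RUNX1 and -0.76 for CBFB, with adjusted p-values of 1.04e-12, 6.36e-13 and 2.17e-16. The authors' deposited table gives 0.49 for EPOR (adjusted p = 0.199) and 1.07 for RUNX2 (adjusted p = 0.338), and for RUNX3 -1.31 with no adjusted p.

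**Figure D4:**
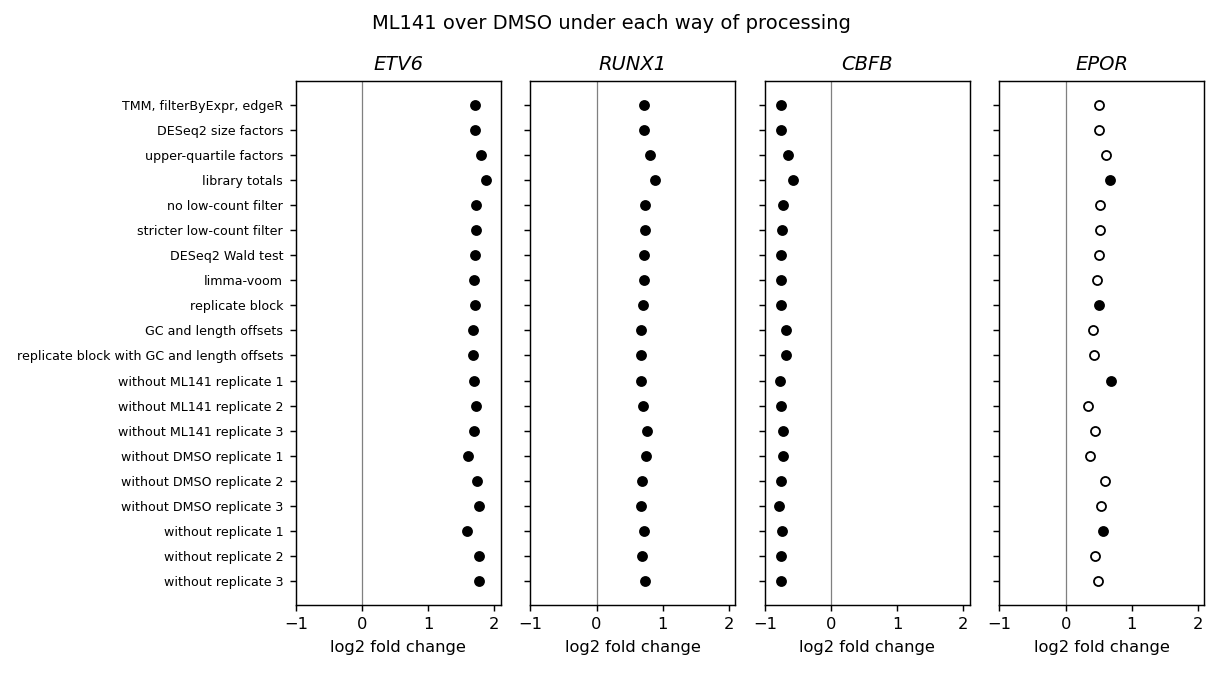
Log2 fold change of ML141 over DMSO for the 4 tested genes (columns) under the processing used here (top) and 19 alternatives (below), filled where the adjusted p is under 0.05. ETV6, RUNX1 and CBFB stay past the threshold on the same side of 0 in all 19, over ranges of 1.59 to 1.88, 0.67 to 0.88 and -0.78 to -0.58, whereas EPOR passes in 4 of 19.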

How the data were processed

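The labels' protocols name the TruSeq RNA v2 kit of Illumina for the 6 REH libraries; it does not mark the strand. The authors deposited raw counts, whole numbers listed by gene symbol. The submitters' processing notes name hg38 and, without roles, featureCounts, Bowtie2, Trimmomatic, Picard, DESeq2 and bcl2fastq 2.19; their settings and the annotation are unknown. Since Bowtie2 makes no spliced alignments, how reads over exon junctions or the fusion junction were treated is not given in the sources used here. The table also holds scores (the authors' counts divided by a size factor and rounded, with their group means and DESeq2 diagnostics), which were not used, and the ratio, log2 fold change and p-value of the authors' own deposited comparison, named where quoted.

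Groups and replicate numbers came from the titles. Genes kept by filterByExpr (minimum count 10, total 15; 11454 genes) were scaled with TMM and tested with edgeR 4.0.16 in R 4.3.3, with a single term for group and 2-sided p-values adjusted by Benjamini and Hochberg over all genes; standard errors are the log2 fold change over the square root of F. The tests were also run on simulated counts with a single dispersion, in which only a small share of genes changed. These data, with 54.4% of genes tested changed, differ from that setting, so it does not check the tests here. Library pairs of a group differed by more than sampling noise (chi-square per degree of freedom 2.90 to 18.4). Alternatives were other scaling (DESeq2 factors, upper quartile, library totals), no or a stricter filter (a mean count of 10 per group and 1 CPM in 3 libraries), DESeq2 1.42.0, limma-voom (limma 3.58.1), GC and length offsets (loess, span 0.5; available for 94.8% of tested genes), the replicate number as a block, and libraries left out. Positions and exons are from GENCODE release 29 (GRCh38, the build called hg38); promoter sequence is from RefSeq, with windows for ETV6, RUNX1, RUNX2, RUNX3 and EPOR. The members and the gene lists were chosen with earlier results of these data known. The rule for named genes took the 6 genes, from each list the 3 tested genes of smallest p, and the 2 genes most like each tested member; others are said to be named for their role.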

Additional observations from a re-analysis of the deposited data

How the results depend on the processing

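ETV6, RUNX1 and CBFB kept their direction and their call under all 19 alternatives. EPOR, not past the test at 0.50, passed with library totals (0.68), with the replicate block (0.50, edgeR adjusted p = 0.0452), without ML141 replicate 1 and without replicate 1 of both groups; with libraries left out it ranged from 0.34 to 0.69 (edgeR adjusted p = 0.0145 to 0.315). Library names recur across groups (CV, Reh1 and Reh3 for replicates 1 to 3) and the study had 3 independent experiments, but the labels do not say that a number marks one. In the replicate block the count of calls was 6979 against 6230 and EPOR was the only one of the 4 genes whose call changed; same-numbered libraries correlated in their deviations at 0.374, 0.0847 and 0.178, and ML141 replicate 2 correlated best with DMSO replicate 3 (0.291). Over all genes the median change was 0.12 with upper-quartile factors and 0.19 with library totals, against 0.02 with TMM, and 59.5% and 66.1% of changed genes were higher, against 49.1%. With libraries left out, genes higher over all genes numbered 1920 to 3195, changed cofactors 12 to 22, ETS factors 4 to 10, EPO receptor pathway genes 11 to 18 and signature genes 3 to 7. In these fits 36.3% to 56.5% of all genes tested changed. Library totals gave 23 changed EPO receptor pathway genes and 8 signature genes, and the stricter filter, which tests fewer genes, gave 2 changed cytokine receptors. Of all genes tested 59.3% changed with library totals and 54% with the stricter filter. Without 1 library the difference in the ratio of RUNX2 to RUNX1 ranged from -0.13 to 0.51 and that of EPOR to RUNX1 from -0.427 to 0.035 (without ML141 replicate 1), both changing sign. The ratio of summed RUNX3 counts ranged from 0 (without ML141 replicate 2) to 0.576. The cause of these shifts was not tested. The 2 to 13 counts of RUNX2 and 0 or 1 of RUNX3 per library set the limit of what could be seen there. GC and length offsets together with the replicate block gave 0.42 for EPOR (edgeR adjusted p = 0.0652).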

Other observations

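The chromosome neighbours of the fusion partners were looked up after the values of ETV6 and RUNX1 had been seen, taking the 5 tested genes on each side. Their order is that of the reference genome, and which of them lie beside the rearranged copies in REH was not tested. Around ETV6 6 of 10 were higher and 1 lower with ML141, with a median log2 fold change of 0.42. They included GABARAPL1, an autophagy gene, at 6.88 ± 1.08 CPM with ML141 and 1.85 ± 0.5 CPM with DMSO, and CDKN1B, which encodes the cell cycle inhibitor p27, at 70.9 ± 11.5 CPM with ML141 and 38.7 ± 3.49 CPM with DMSO. LRP6, the nearest tested gene after ETV6, rose 1.30-fold, and SMIM10L1, the nearest before it, rose 1.75-fold. The lower gene was MAGOHB, at -0.90 (SE 0.109). CREBL2, also higher at 0.32 (edgeR adjusted p = 0.035), overlapped between groups. Its call was lost without ML141 replicate 1 (edgeR adjusted p = 0.0795) and in other fits with libraries left out. Around RUNX1 3 of 10 were higher and 4 lower, with a median of -0.30. RCAN1, a calcineurin regulator and the nearest tested gene on the lower-coordinate side, rose 1.25-fold with a call lost without replicate 3 of both groups (edgeR adjusted p = 0.0719), SETD4 on the other side, at 0.19 (SE 0.142), did not pass the test, and CHAF1B, a histone chaperone of replicating DNA, fell to 30.3 ± 9.93 CPM with ML141, against 97.05 ± 1.67 CPM with DMSO. Over all genes tested 26.7% were higher and 27.7% lower.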
